A study of Mus musculus with 18 samples.

Results

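The transcript levels of the young mouse hippocampus are described from the 6 arrays labelled young, out of 18 arrays in the series. The series compares the hippocampus of mice with good and with poor spatial memory, and the other 12 arrays come from old mice, which were not used here. All 6 young samples carry the label of unimpaired spatial memory, no genetic change or treatment is named for them, and total RNA was labelled with biotin for Affymetrix arrays. Their strain, sex, age in months and hour of collection are not stated in the labels. Nothing in the labels ties a sample to an animal of its own, so the spread between samples may be partly technical. Samples are called young 1 to young 6 after their titles, and their numbers have no order.

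The hippocampus is a folded sheet of cortex needed for spatial memory. Input from the entorhinal cortex reaches the granule cells of the dentate gyrus, whose mossy fibres contact CA3 pyramidal cells, and CA3 cells in turn contact CA1 pyramidal cells. Astrocytes, myelinating oligodendrocytes, microglia and vessels lie between the neurons, and the choroid plexus, the epithelium that secretes cerebrospinal fluid, hangs in the lateral ventricle along its edge. A dissected hippocampus can therefore carry pieces of choroid plexus, ventricle wall and meninges.

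Each level below is log2(signal + 16) after every array was brought to a trimmed mean of 500, and a difference of 1 on this scale is a 2-fold difference in signal plus offset, which is more than 2-fold in the signal itself for dim genes. Of 18193 genes with a named probe set, 13170 had their brightest probe set among the brightest 60% of probe sets, and spread between samples is described for these. The median over all 18193 genes was 8.16. A rank is a rank of signal: it depends on how well each probe set binds as well as on how much transcript there was, so a higher signal in one gene than in another is no measure of molecules. In a whole tissue, fewer cells of a type and less RNA per cell cannot be told apart.

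As a yardstick for dim signal, 22 genes of liver, pancreas, muscle, testis and other organs were used, such as Fgb, a fibrinogen chain of the liver, at 4.20 ± 0.06 (SD, n = 6), and Gcg, the glucagon gene of the pancreas, at 4.45 ± 0.34 (SD, n = 6). The 95th percentile of these genes was 7.54, and 10327 genes (56.8%) lay above it. Acta1, the skeletal muscle actin, was the brightest of them at 8.72 ± 0.11 (SD, n = 6), so a level a little above the yardstick does not by itself show that a gene was expressed. Of 31 other lists of marker and function genes with a named probe set, 27 had a median above the yardstick.

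The 6 arrays were alike in median signal, in correlation and in 3′ over 5′ signal, but not in their spike-ins and highest signals. Median deposited signals lay between 26.1 and 30.5, and each array correlated at 0.980 to 0.985 with its most similar array over the genes. For Gapdh, 3′ over 5′ signal lay between -0.33 and -0.20 on the log2 scale, and for actin between 0.74 and 1.05. The hybridisation spike-ins, which are added in fixed amount, averaged 13.23 in young 3 and 12.95 in young 5 and 12.06 to 12.41 in the other samples. The highest deposited signal was 27601.2 in young 3 and 27225.9 in young 5, against 14076.1 to 18656 elsewhere.

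The brightest gene of the young hippocampus was Ttr, the thyroxine carrier transthyretin that choroid plexus epithelium secretes, at a mean of 15.69. It was followed by the mitochondrially encoded respiratory chain subunit ND5 at 15.56, the ribosomal protein gene Rps29 at 15.53, the ferritin heavy chain Fth1 at 15.51 and Mbp, the myelin basic protein, at 15.42. Neuronal genes among the 20 brightest were Snap25, a SNARE protein of synaptic vesicle fusion, at 15.12, Nsmf, a synapse-to-nucleus messenger, at 15.31, Gpm6a, a neuronal membrane glycoprotein, at 15.10 and Cpe, a peptide-processing enzyme, at 15.32. The sodium pump subunit Atp1b1 stood at 15.39. Most of the remaining ones are expressed in nearly every cell, among them Actb at 15.32, Eef1a1 at 15.25, Tpt1 at 15.22 and the chaperone Hspa8 at 14.98.

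**Figure D1:**
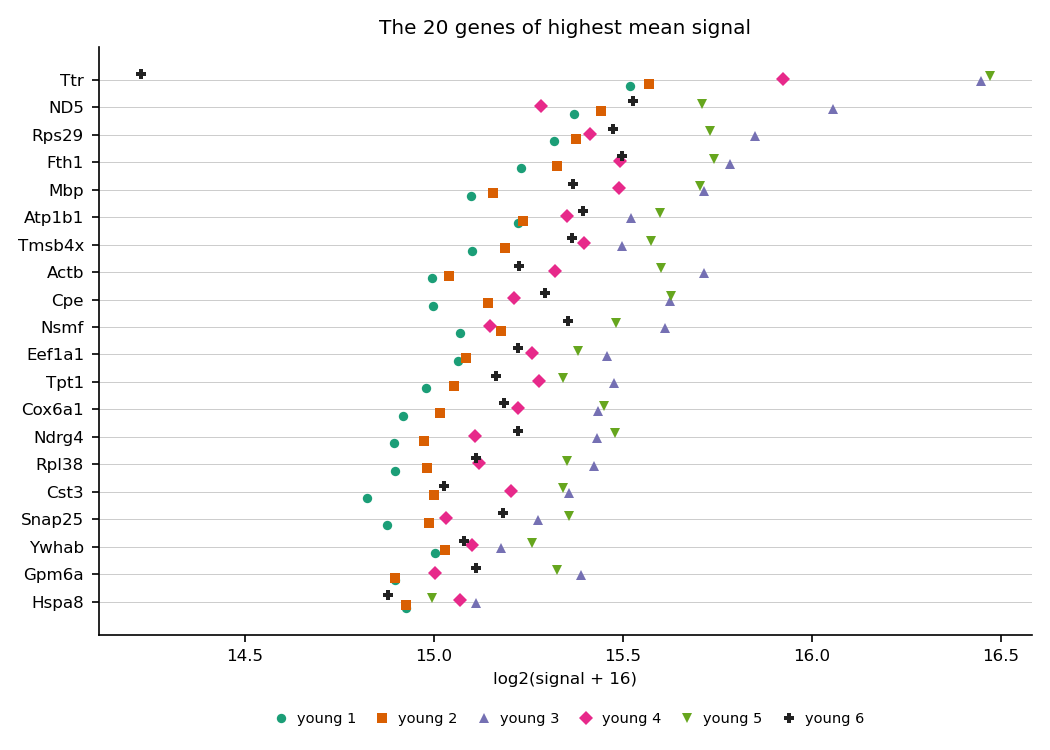
The 20 genes of highest mean signal, with log2(signal + 16) on the horizontal axis and 1 marker per young sample. Ttr spans 14.23 in young 6 to 16.47 in young 5, while the other 19 genes have their highest marker in young 3 or young 5 and none below 14.8.

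All 20 had their highest value in young 3 or young 5, and 16 had their lowest in young 1. The same held for 146 (80.2%) of the 182 genes at or above the 99th percentile, whereas 4702 (35.7%) of the 13170 genes were highest in young 3 or young 5. Under quantile normalization, which gives all arrays the same distribution, this fell to 1 of the 20 and to 38 (20.9%) of the 182. The spike-ins were also highest in young 3 and young 5, and their part in this was not tested. Which sample was highest for a very bright gene therefore depends on the scaling. Genes for cytosolic ribosomal proteins were also at this end, with a median of 13.31 over 53 genes and 19 of them in the top 1%.

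Neuronal transcripts were bright and had a small SD. The 16 pan-neuronal genes had a median of 13.54, at the 98.8th percentile of all genes, and a median SD of 0.12. Syt1, the calcium sensor of vesicle release, stood at 14.44 ± 0.16 (SD, n = 6), Stmn3, a tubulin-binding protein, at 14.42 ± 0.07 (SD, n = 6) and the surface glycoprotein Thy1 at 14.05 ± 0.06 (SD, n = 6). The widest of the 16 was Gap43, the growth-cone protein kept in adult hippocampal axons, which measured 11.63, 11.43, 11.80, 11.10, 11.73 and 11.44 in young 1 to 6 with young 4 lowest. The 15 presynaptic genes had a median of 13.28, and the vesicle fusion ATPase Nsf measured 14.40 ± 0.12 (SD, n = 6). None of the members of either list spanned a range of 1, the rule for a variable gene here, which 1612 of the 13170 genes met (12.2%). Only 339 of those 1612 lay above the yardstick, so a bright list would rarely hold one.

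Transcripts of excitatory and of inhibitory neurons were also steady. The 15 genes of glutamatergic neurons had a median of 11.87. Nrgn, the calmodulin-binding neurogranin of dendritic spines, was the brightest at 14.14 ± 0.15 (SD, n = 6), followed by the kinase Camk2a at 13.23 ± 0.24 (SD, n = 6) and the AMPA receptor subunit Gria2 at 13.20 ± 0.07 (SD, n = 6). Slc17a7, the vesicular glutamate transporter VGLUT1, measured 12.72, 13.25, 13.19, 13.11, 13.29 and 13.33, with young 1 below the other 5. The glutamate receptor subunit Grin2a was dimmest at 7.05, below the yardstick, and had the largest SD of the list at 0.32.

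The 18 interneuron genes had a median of 10.70, at the 84.0th percentile. Gad1, which makes GABA, led at 13.77 ± 0.13 (SD, n = 6), and the neuropeptides Cck and Sst stood at 13.09 ± 0.08 and 13.07 ± 0.10 (SD, n = 6 each). Cnr1, the cannabinoid receptor of Cck-type basket cell terminals, was at 12.37 ± 0.23 (SD, n = 6). The peptide gene Cort had the largest SD, 0.35, at a mean of 7.72. In young 4, 10 of the 18 had their lowest value, against 18.6% of all genes, and the count was the same under quantile normalization. The list mean was 10.55 in young 4 and at least 10.66 in the other 5.

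Markers of the hippocampal subfields were present at middle levels, as the tissue label asks. Of these, Wfs1 for CA1 was at or above 11.20 in every sample, Rgs14 for CA2 at or above 10.93 and Prox1 for the dentate gyrus at or above 8.13. CA1 pyramidal genes had a median of 10.69 over 9 genes, dentate granule genes 9.58 over 12, CA2 genes 8.86 over 8 and CA3 genes 8.80 over 8. These medians compare different probe sets and give no proportion of the subfields. The secreted matrix protein Ccn3 was the brightest CA1 gene at 12.21 ± 0.23 (SD, n = 6), and Wfs1, an endoplasmic reticulum protein that marks CA1, measured 11.20, 11.48, 11.20, 11.48, 11.36 and 11.55. In CA2, the Purkinje cell protein Pcp4 stood at 13.24 ± 0.13 (SD, n = 6) and Rgs14, a brake on CA2 plasticity, at 11.15 ± 0.18 (SD, n = 6). Avpr1b, the vasopressin receptor that marks CA2, was at 4.44, far under the yardstick, and is named here after its level was seen. CA3 was led by the zinc finger gene Plagl1 at 11.71 and the apoptosis regulator Bok at 11.06. The dentate list was led by the calcium buffer Calb1 at 12.56 ± 0.05 (SD, n = 6), which CA1 cells also make, and Stxbp6 at 12.48 ± 0.13 (SD, n = 6), with C1ql2, a mossy fibre synapse organiser, at 10.92 ± 0.22 (SD, n = 6).

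The subfield lists moved little between samples and not in parallel. The CA1 list mean was 10.57, 10.70, 10.42, 10.70, 10.77 and 10.76 in young 1 to 6, lowest in young 3, where 6 of its 9 members had their lowest value (4 under quantile normalization, and 17.6% of all genes). The clearest was Pou3f1, a POU-domain transcription factor, at 10.06 in young 3 and 10.62 to 10.90 in the others. The dentate list mean was 9.79, 9.86, 9.68, 10.03, 9.78 and 9.70, highest in young 4, where 7 of 12 members peaked (7 under quantile normalization, and 17.2% of all genes). Prox1, the transcription factor that fixes granule cell identity, measured 8.20, 8.13, 8.47, 8.86, 8.57 and 8.19, high in young 4. In CA3, Coch, an extracellular matrix protein, had the largest SD, 0.51, with 8.65, 7.81, 8.52, 8.69, 7.48 and 7.90, high in young 1, 3 and 4. Socs2, a brake on growth hormone signalling, measured 8.71 in young 4 and 9.22 to 9.33 in the others. Of the 9 CA1, 8 CA3 and 12 dentate genes, only Coch and the dentate cation channel Trpc6, at 7.44 in young 5 and 8.62 in young 2, spanned a range of 1 or more.

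Genes of newborn granule neurons and their progenitors split by level. The dentate gyrus keeps making neurons after birth, and the list holds markers shared with other cells as well as markers of division. Stmn1, a tubulin-binding protein that mature neurons also express, stood at 13.99 ± 0.13 (SD, n = 6), and Sox2, shared with astrocytes, at 11.24 ± 0.14 (SD, n = 6). Sox4 and Neurod1, transcription factors of differentiating granule cells, were at 10.71 ± 0.10 and 10.64 ± 0.13 (SD, n = 6 each). The markers that are more particular to newborn or dividing cells, picked from the list after their levels were seen, were near or under the yardstick: Dcx, a microtubule protein of migrating neurons, at 7.63, Eomes, of intermediate progenitors, at 5.71, and the proliferation gene Mki67 at 5.09. Of the 15 members, 7 lay above the yardstick. Levels under the yardstick were not told from dim signal.

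**Figure D2:**
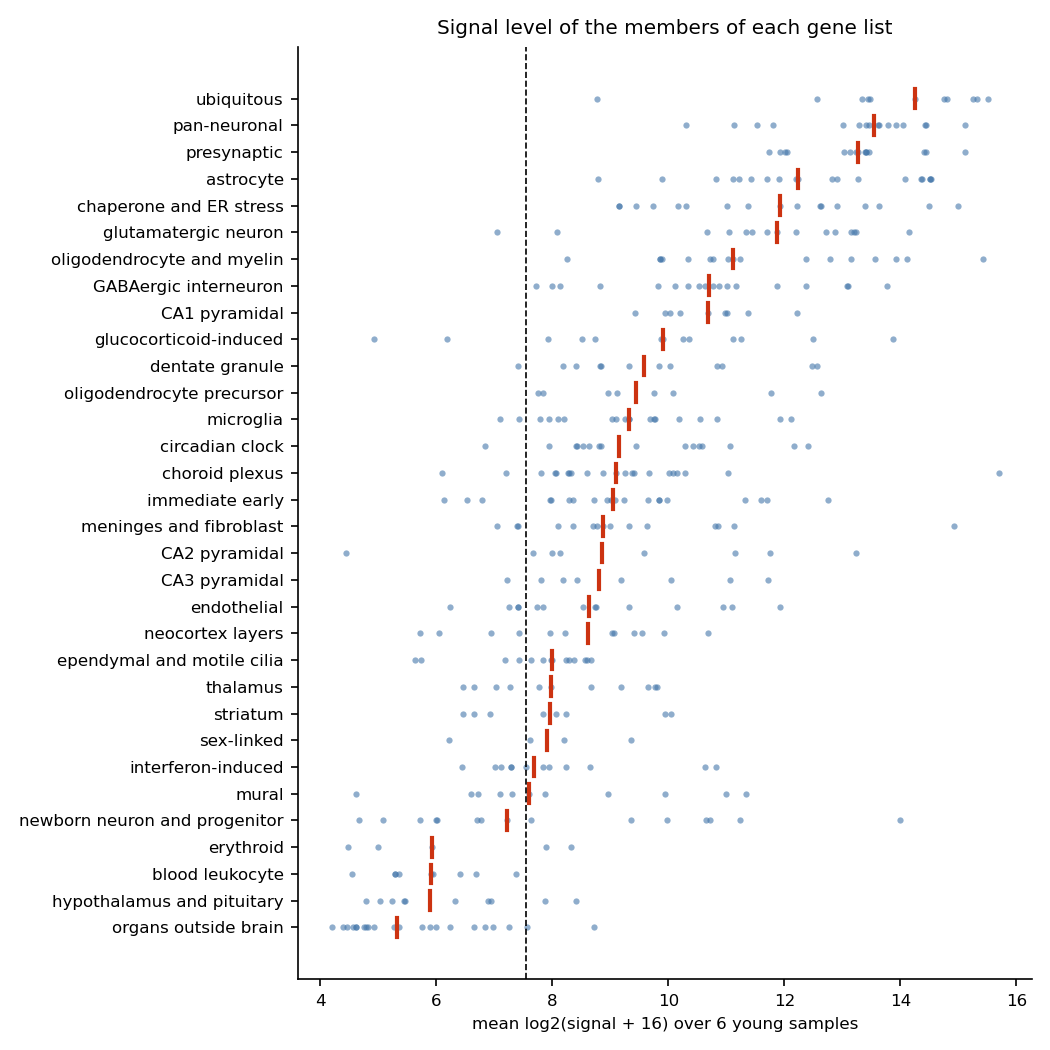
Mean log2(signal + 16) over the 6 young samples for each gene (points) of 32 gene lists, with the list median as a red bar and the dim-signal yardstick of 7.54 as a dashed line. Pan-neuronal and presynaptic medians lie above 13, subfield medians between 8.80 and 10.69, and those of blood and of other organs below 6.

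Astrocyte genes were the brightest of the glial lists, with a median of 12.24 over 19 genes, at the 95.3rd percentile. Clu, a secreted chaperone, stood at 14.53 ± 0.18 (SD, n = 6), Aldoc, a glycolytic enzyme, at 14.52 ± 0.20 (SD, n = 6) and Slc1a2, the main glutamate transporter, at 14.37 ± 0.14 (SD, n = 6). Gfap, the intermediate filament of astrocytes, varied most and measured 12.68, 12.58, 13.27, 13.37, 12.68 and 12.85. It was high in young 3 and young 4, and its 2 other probe sets were highest in these samples too, with young 3 above young 4. Young 3 had the highest value for 12 of the 19 genes (11 under quantile normalization), against 22.6% of all genes.

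Oligodendrocyte and myelin genes had a median of 11.11 over 17 genes. Mbp measured 15.10, 15.16, 15.71, 15.49, 15.70 and 15.37. The dihydropteridine reductase Qdpr was at 14.11 ± 0.14 (SD, n = 6), the myelin enzyme Cnp at 13.92 ± 0.34 (SD, n = 6) and Mobp, a compact-myelin protein, at 13.57 ± 0.19 (SD, n = 6). The list moved together more than the neuronal lists: 12 of 17 members were highest in young 4 (13 under quantile normalization, and 17.2% of all genes), 11 of 17 were lowest in young 2 (11 under quantile normalization, and 15% of all genes), and the list mean ranged over 0.51. The median SD of its members was 2.04 times that of the 200 genes nearest in mean, against 1.08 for glutamatergic, 1.25 for pan-neuronal, 1.40 for GABAergic, 1.42 for dentate granule and 1.59 for CA1 genes. No member spanned a range of 1. Genes of oligodendrocyte precursors, with a median of 9.44 over 8 genes, ranged over 0.21 in their mean; the transcription factor Olig1, which oligodendrocytes keep, led at 12.62 ± 0.12 (SD, n = 6) and Pdgfra, the growth factor receptor of precursors, stood at 10.08 ± 0.10 (SD, n = 6).

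Microglia genes had a median of 9.32 over 19 genes. Csf1r, the receptor microglia need to survive, stood at 12.10 ± 0.07 (SD, n = 6), the lysosomal protease Ctss at 11.92 ± 0.23 (SD, n = 6) and the complement genes C1qa and C1qb at 10.83 ± 0.13 and 10.54 ± 0.10 (SD, n = 6 each). Cx3cr1, the fractalkine receptor, varied most: 9.21, 8.67, 9.66, 9.85, 9.58 and 8.99, lowest in young 2 and next in young 6. Of the 19 genes, 13 had their lowest value in young 2 or young 6, against 31.4% of all genes, with 7 in young 6 (6 under quantile normalization) and 6 in young 2 (6 under quantile normalization). The differences were small, with a range of 0.21 in the list mean.

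Vascular genes lay lower. The endothelial list had a median of 8.63 over 14 genes, led by Itm2a at 11.92 ± 0.15 (SD, n = 6), the glucose transporter Slc2a1 at 11.09 ± 0.11 (SD, n = 6) and the thyroxine transporter Slco1c1 at 10.94 ± 0.30 (SD, n = 6), with the tight-junction gene Cldn5 at 10.15 ± 0.17 (SD, n = 6). Its mean ranged over 0.10. The mural list, of pericytes and arterial muscle, had a median of 7.59 over 11 genes; Rgs5, a pericyte marker, stood at 11.34 ± 0.11 (SD, n = 6), and Acta2, the smooth muscle actin, measured 9.88, 10.50, 9.73, 10.11, 9.69 and 9.74, highest in young 2. Tagln, an actin-binding protein of smooth muscle, was the most variable at an SD of 0.52, with 6.44 in young 6 and 7.98 in young 4, but its mean of 7.31 was below the yardstick.

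Among the lists for tissue near the hippocampus, neocortex, thalamus and striatum lists were at middle to low levels, with medians of 8.62, 7.98 and 7.96. Lamp5, which hippocampal interneurons also express, led the neocortex list at 10.68 ± 0.17 (SD, n = 6), and Fezf2, a transcription factor of deep-layer neurons, stood at 9.92 ± 0.17 (SD, n = 6). Ntng1, an axon guidance protein, led the thalamus list at 9.80 ± 0.15 (SD, n = 6) with Slc17a6, the vesicular glutamate transporter VGLUT2, at 9.77 ± 0.28 (SD, n = 6), and Penk, proenkephalin, led the striatum list at 10.05 ± 0.11 (SD, n = 6). Ppp1r1b, the striatal dopamine signalling protein DARPP-32, measured 10.19, 9.67, 10.08, 10.26, 9.95 and 9.50. The means of these 3 lists ranged over 0.21, 0.19 and 0.36, while 2 of 11, 4 of 11 and 1 of 8 members in the brightest 60% spanned a range of 1, beside the 12.2% of all genes. Hypothalamic and pituitary hormone genes were mostly dim: of 10, 2 lay above the yardstick, namely Oxt, oxytocin, at 8.41 ± 0.26 (SD, n = 6), and Cartpt, a feeding peptide, at 7.87, with 8.80 in young 3 and 7.57 to 7.87 in the others. Levels in other brain regions were not measured, so these values do not give an amount of neighbouring tissue.

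Blood genes were mostly dim. Of 9 leukocyte genes none had a mean above the yardstick, though a few single values lay above it, and the leukocyte common antigen Ptprc, which microglia also carry, was the brightest at 7.38. Of the 5 erythroid genes with a named probe set, 2 had a mean above it. Alas2, which starts heme synthesis in red cell precursors, measured 8.22, 8.49, 8.92, 8.998, 8.48 and 6.82, with young 6 below the rest, and the beta globin gene Hbb-b2 measured 7.40, 8.04, 8.21, 8.32, 7.80 and 7.53. The band 3 anion exchanger Slc4a1 averaged 5.92 and the alpha globin genes Hba-a1 and Hba-a2 averaged 5.00 and 4.48. The leukocyte and erythroid list means, over only 3 and 2 members in the brightest 60%, ranged over 1.65 and 1.48. Both means were lowest in young 6. So were all 3 leukocyte members (2 under quantile normalization, and 16.4% of all genes) and 1 of the 2 erythroid members. The 3 leukocyte members lay below the yardstick, where genes vary more. The Y-linked genes Eif2s3y and Kdm5d lay above the yardstick in every sample, at 8.91 to 9.52 and 7.73 to 8.38, and both were lowest in young 4. The Y-linked gene Uty averaged 7.62, and Xist, the RNA of the inactive X, lay below the yardstick in every sample at 5.44 to 6.80.

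Choroid plexus genes varied most of all lists. All 21 members with a named probe set, of 24 written, were in the brightest 60% of probe sets and all 21 spanned a range of 1 or more, as 12.2% of all genes did. The narrowest was Car12, a carbonic anhydrase, at 1.13. Young 6 was lowest in 19 of the 21, against 16.4% of all genes, and young 2 was lowest in Car12 and in the angiotensin-converting enzyme Ace. Their median SD was 1.17, and 5.91 times that of the 200 genes nearest in mean. The list mean was 10.04, 8.50, 9.92, 10.19, 9.25 and 7.41 in young 1 to 6. Young 6 was lowest, young 2 next and young 5 after it, and young 1, 3 and 4 lay close together. The list had the largest median SD of all lists under each scaling, offset, probe set rule and filter tried, and with any 1 sample left out. Without young 6 the range of the list mean fell from 2.78 to 1.69 and young 2 became lowest.

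The promoters of 3 members are shown because the list moved together; they are those of largest SD among the members with a single start in the RefSeq table, none on the chromosome of Ttr. Each is the 250 bases before the start of the gene, 5′ to 3′ on the gene's strand, from RefSeq on build GRCm38.p6, with capitals where the letters CCAAT, known as the CCAAT box, or the letters TATAAA, known as the TATA box, occur on either strand. Slc4a5, the sodium bicarbonate transporter of the plexus, lies at chr6:83237125-83237374 on the plus strand, Kcnj13, an inward rectifier potassium channel of the plexus, at chr1:87394730-87394979 on the minus strand, and Steap1, a metalloreductase, at chr5:5749318-5749567 on the minus strand.
Slc4a5: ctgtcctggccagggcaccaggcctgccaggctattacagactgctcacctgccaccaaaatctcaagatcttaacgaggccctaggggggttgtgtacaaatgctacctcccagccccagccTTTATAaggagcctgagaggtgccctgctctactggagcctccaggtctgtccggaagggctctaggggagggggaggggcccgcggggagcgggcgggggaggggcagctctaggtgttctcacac
Kcnj13: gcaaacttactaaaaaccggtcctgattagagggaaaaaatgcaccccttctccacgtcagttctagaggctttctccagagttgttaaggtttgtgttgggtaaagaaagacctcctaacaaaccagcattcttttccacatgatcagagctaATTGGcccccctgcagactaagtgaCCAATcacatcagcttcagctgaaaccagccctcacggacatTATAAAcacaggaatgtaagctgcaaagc
Steap1: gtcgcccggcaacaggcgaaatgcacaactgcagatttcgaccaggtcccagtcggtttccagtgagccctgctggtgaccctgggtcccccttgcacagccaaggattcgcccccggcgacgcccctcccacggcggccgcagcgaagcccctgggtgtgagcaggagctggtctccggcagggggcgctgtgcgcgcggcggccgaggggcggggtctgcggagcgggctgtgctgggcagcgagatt
The Slc4a5 window holds 1 TATAAA match and no CCAAT, the Kcnj13 window 1 TATAAA and 2 CCAAT, and the Steap1 window neither. Among the 22 windows of 16 choroid plexus genes in the table, 5 held TATAAA and 4 held CCAAT on either strand, against 12.4% and 33.8% of all 32851 windows of the same length. The OTX core TAATCC, searched in the same way, was in 2 of the 22 windows, against 6.25% of all. The forkhead letters GTAAACA were in 0, against 3.17%, and the E-box letters CACGTG in 1, against 6.02%. The motifs do not overlap one another in the 3 windows shown, and a match is only a match of letters.

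By role, the ion and water transport genes of the epithelium come first. Kcne2, a potassium channel subunit, measured 10.14, 8.19, 9.85, 10.38, 9.19 and 5.51, the largest SD of the 13170 genes at 1.83. Slc4a5 measured 8.20, 6.50, 8.46, 8.49, 7.42 and 4.12, near the lowest possible value of 4 in young 6. Kcnj13 measured 11.35, 9.40, 11.40, 11.28, 10.37 and 7.90. In these 3 genes the values fell into the same order at the bottom, with young 6 below young 2 and young 2 below young 5. The water channel Aqp1 ran from 6.07 in young 6 to 9.28 in young 4, the chloride channel protein Clic6 from 8.20 to 11.13 and the tight-junction claudin Cldn2 from 6.14 in young 6 to 9.48 in young 1.

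Receptor and secreted genes of the plexus followed. Folr1, the folate receptor, measured 10.55, 8.64, 10.22, 10.50, 9.66 and 6.69. Kl, the ageing-linked coreceptor klotho, measured 10.999, 9.31, 10.63, 11.02, 10.17 and 8.40. Igfbp2, a binding protein for insulin-like growth factors, measured 11.61, 10.40, 11.44, 11.89, 10.84 and 10.005. In each of the 3, young 6 was lowest and young 2 next. Sostdc1, a secreted BMP antagonist, ran from 8.08 in young 6 to 11.12 in young 4. Steap1 ran from 6.13 to 9.53 and the clotting factor F5 from 6.24 to 9.24. Ttr, Ace and Car12 aside, the ranges of the members not yet named ran from 1.71, in the sulfate transporter Slc13a4, to 3.05, in the collagen gene Col8a1.

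Ttr was lowest in young 6 on all 4 of its probe sets. The brightest measured 15.52, 15.57, 16.45, 15.92, 16.47 and 14.23, so young 2 was level with young 1, and young 3 and young 5 were highest, as for the other brightest genes. On the other 3 probe sets young 2 was next to lowest. Ttr ranged over 2.24 on the brightest probe set and over 2.06, 2.55 and 3.48 on the others, the widest being the dimmest of the 4, with 15.39, 14.67, 15.95, 15.68, 15.61 and 12.47. Even at its lowest, in young 6, the brightest probe set of Ttr read 14.23, so young 6 kept a high Ttr signal while Slc4a5 was close to the floor.

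**Figure D3:**
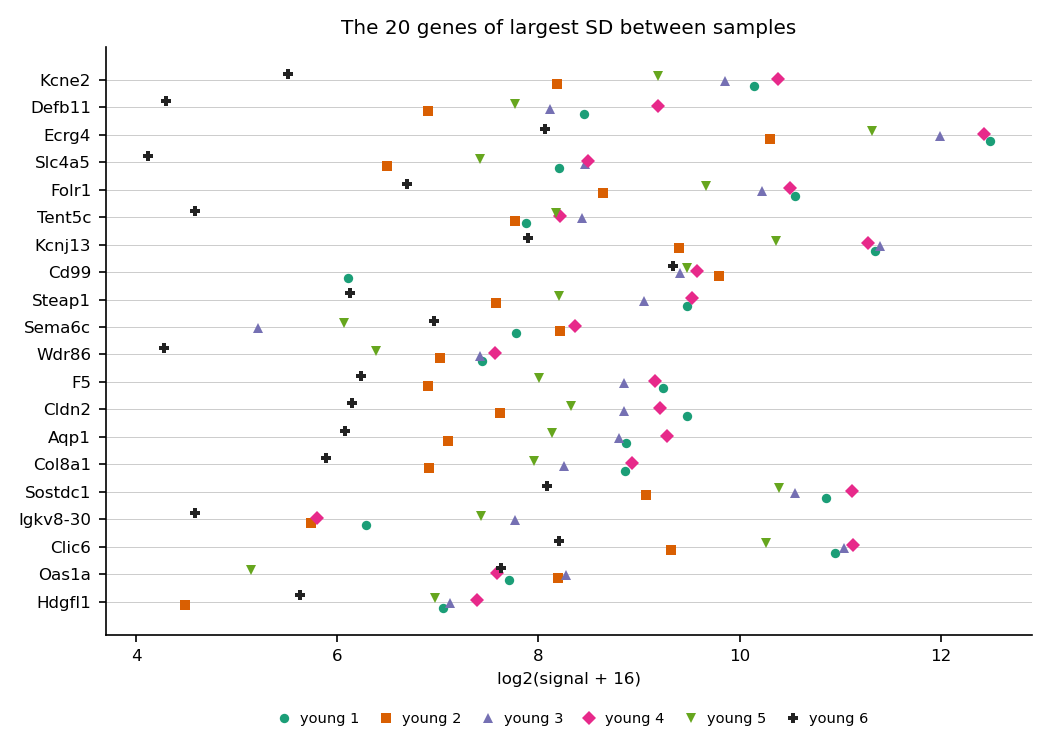
The 20 genes of largest SD between the 6 young samples, with log2(signal + 16) on the horizontal axis and 1 marker per sample. Young 6 (black cross) is lowest in 16 of the 20, young 2 (orange square) is next in most of the choroid plexus genes, and Cd99 is low in young 1.

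The order young 6, then young 2, then young 5 at the bottom was met by 16 of the 21 choroid plexus genes and by 288 of the 13170 genes (2.19%). With a range of at least 1 besides, 86 genes met it (0.653%), of which 16 were on the choroid plexus list, 4 on another list and 66 on none. Among the 66 was Ecrg4, a secreted peptide precursor of the plexus, at 12.49, 10.31, 11.99, 12.43, 11.32 and 8.07, and its 2 other probe sets were also lowest in young 6. Defb11, a defensin, ran from 4.30 in young 6 to 9.19 in young 4. Others, chosen after their values were seen, were the lactate transporter Slc16a8 with 5.87 in young 6 and 8.35 in young 4, the keratin Krt18 with 6.59 and 9.02 in young 3, and the sulfatase Sulf1 with 7.22 and 9.85 in young 4. The members of the list were chosen with earlier results of these data known, and the order was read from the mean of this same list. The count on the list is therefore a description.

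Genes of the ependyma, the ciliated lining of the ventricles, had a smaller spread than the choroid plexus genes. The list mean was 8.38, 7.53, 8.55, 8.33, 8.08 and 7.53 in young 1 to 6, equally low in young 2 and young 6. Of its 12 members in the brightest 60%, 11 had both of their lowest values in young 2 and young 6, as did 18 of the 21 choroid plexus genes and 1145 of all 13170 genes (8.69%). A range of 1 was spanned by 10 of the 12, beside 12.2% of all genes. The list median was 7.99, and dim genes span such a range more often. The dynein light chain Dynlrb2 measured 8.96, 8.03, 9.12, 9.15, 8.80 and 7.96. The cilia gene Cfap126 had the largest SD, 0.67, with 8.56, 7.80, 9.08, 8.39, 8.67 and 7.22. Rsph1, a radial spoke protein of motile cilia, measured 8.50, 8.26, 9.22, 8.96, 8.63 and 8.01. Rarres2, the chemerin precursor, differed least, with 7.91 in young 6 and 8.57 in young 1.

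Meninges and fibroblast genes followed a different order. Their list mean was 9.43, 9.41, 9.76, 9.48, 8.98 and 9.07, highest in young 3 and lowest in young 5. A range of 1 was spanned by 8 of 15 members, beside 12.2% of all genes. Above the yardstick, where 12 of the 15 lay, 3.28% of genes spanned it. Of the 15, 11 were highest in young 3 (10 under quantile normalization, and 22.6% of all genes) and 9 lowest in young 5 (10 under quantile normalization, and 17.7% of all genes). Ptgds, the prostaglandin D synthase of leptomeninges and choroid plexus, measured 14.71, 14.83, 15.43, 14.90, 14.83 and 14.86. Mgp, matrix Gla protein, measured 10.84, 10.90, 11.44, 11.06, 10.48 and 10.43. Igf2, the insulin-like growth factor that both meninges and choroid plexus make, measured 11.40, 10.82, 11.64, 11.84, 10.82 and 10.31 and was lowest in young 6. Dcn, the matrix proteoglycan decorin, went another way, with 11.39, 10.93, 10.90, 10.20, 11.01 and 10.43 and its highest value in young 1.

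**Figure D4:**
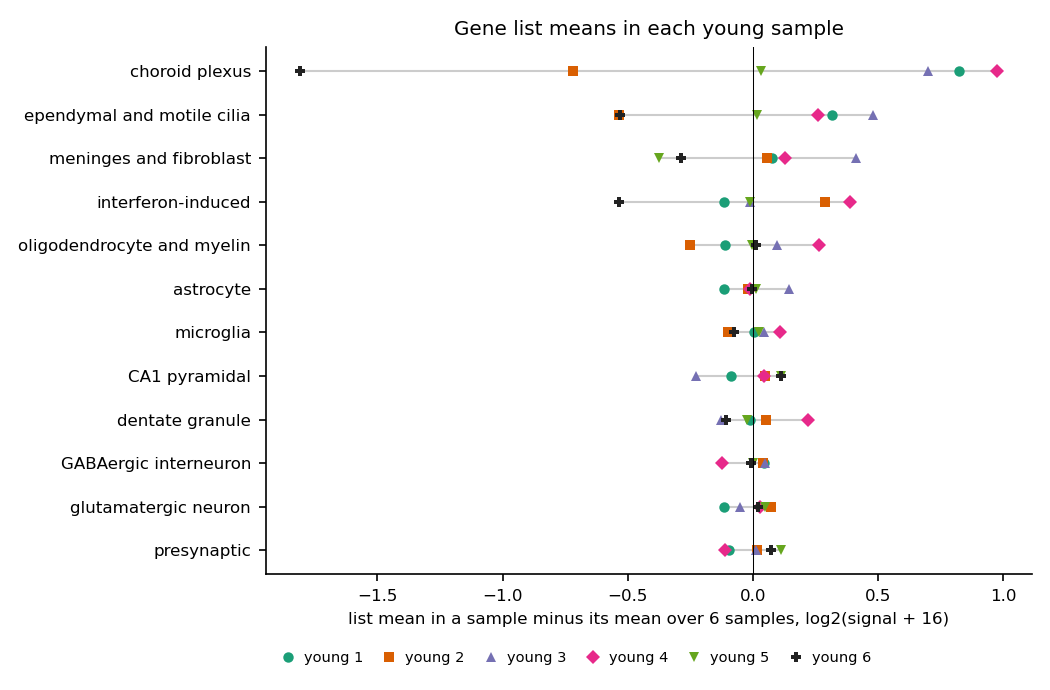
Mean of each list in each young sample minus the mean of that list over the 6 samples, in log2(signal + 16), for 12 of the lists with 1 marker per sample. The choroid plexus list spans 2.78 and the cilia list 1.02, with young 6 and young 2 at the low end of both, while the neuronal lists span 0.35 or less.

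Among the neuronal and glial lists, the microglia mean was also lowest in young 2 and next in young 6, within its range of 0.21. No neuronal list mean had young 6, young 2 and young 5 lowest. The pan-neuronal, presynaptic and CA1 means were highest in these samples, within ranges of 0.19, 0.22 and 0.34. The pan-neuronal mean was 13.19 to 13.28 there and 13.09 to 13.15 elsewhere. In the pan-neuronal and presynaptic lists the member counts depended on the scaling. Of 16 pan-neuronal genes, 8 were highest in young 5 and 8 lowest in young 1, against 3 and 1 under quantile normalization. Of 15 presynaptic genes the counts were 7 and 7, against 3 and 2. Those highest in young 6 rose from 4 to 6 and from 3 to 6. Young 2 was level with young 3 in the presynaptic list and with young 4 in the CA1 list. The means of the other neuronal lists did not have this order. A relation of these means to the choroid plexus signal was not tested. In young 6, where the choroid plexus mean was lowest at 7.41, the CA1 mean was 10.76, the second highest of the 6. How the samples were dissected is not described in the labels. Whether more or less adjoining tissue was taken with the hippocampus in a sample was not tested.

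Across all genes, spread depended on level. In the lowest of 10 level classes, with means of 5.97 to 6.65, the median SD was 0.42 and 58.8% of genes spanned a range of 1. In the highest class, from 11.73 to 15.69, the median SD was 0.10 and 0.304% did. The median SD of the 13170 genes was 0.17, and 339 (3.28%) of the 10327 genes above the yardstick met the rule. Steady genes included Aasdhppt, an enzyme that activates carrier proteins, at 10.22 with an SD of 0.02, and Ndufa3, a subunit of respiratory complex I, at 13.43 with an SD of 0.02.

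**Figure D5:**
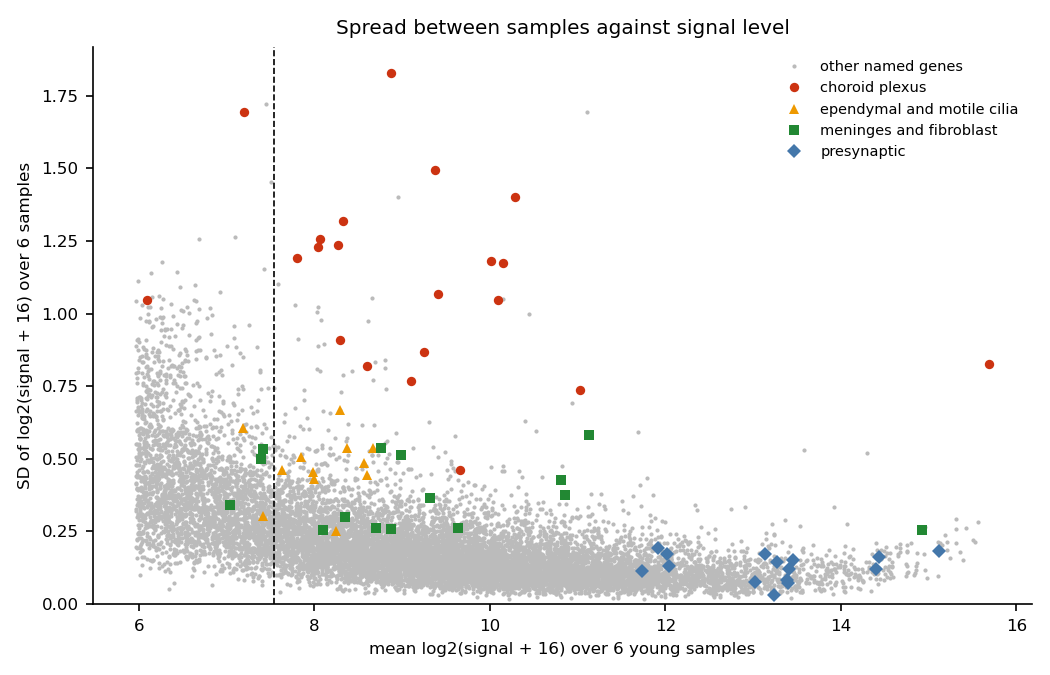
SD over the 6 young samples against mean log2(signal + 16) for the 13170 genes of the brightest 60% (grey), with 4 lists in colour and the dim-signal yardstick of 7.54 dashed. Most choroid plexus genes stand far above genes of equal level, cilia and meninges genes less so, and presynaptic genes lie within the grey cloud.

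Of the 20 genes of largest SD, 11 were on the choroid plexus list, 16 were lowest in young 6, against 16.4% of all genes, and 12 lay above the yardstick. Only 4 of the 20 remained among the 20 widest when young 6 was left out. Cd99, a cell adhesion glycoprotein, measured 6.11, 9.79, 9.41, 9.57, 9.48 and 9.34, low in young 1 alone, and its other probe sets read 6.63 and 6.27 in young 1 against 8.97 or more elsewhere. Tent5c, a poly(A) polymerase, was at 4.58 in young 6 and 7.77 to 8.43 in the others, Wdr86 at 4.27 in young 6 and Oas1a, an interferon-induced enzyme, at 5.14 in young 5 and 7.59 to 8.28 in the others. Sema6c, a semaphorin, ran from 5.21 in young 3 to 8.36 in young 4 on its brightest probe set, and its next probe set was highest in young 6, so the 2 probe sets disagreed. The immunoglobulin gene Igkv8-30 was dim at 6.27, as was Hdgfl1 at 6.44.

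The means of the lists of cell states mostly moved little between samples. Among 20 immediate early genes, which neurons switch on within minutes of activity, the median was 9.04 and the list mean ranged over 0.25. Egr1, a zinc finger factor with high resting levels in CA1, measured 12.54, 12.68, 12.68, 12.78, 12.73 and 13.15, highest in young 6. Arc, a regulator of AMPA receptor traffic, measured 9.39, 9.54, 9.59, 10.50, 9.93 and 10.05, highest in young 4, and was the only one of the 20 to span a range of 1. Fos, the classic activity marker, measured 9.002, 8.76, 9.39, 9.30, 8.74 and 9.28. The activity genes thus did not peak in 1 sample.

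Clock genes oscillate over the day, and here they differed little in size between the samples. The list of 16 had a median of 9.15 and a mean that ranged over 0.22, highest in young 6, where 8 of the 16 had their highest value (8 under quantile normalization, and 14.8% of all genes). Dbp, a strongly cycling output gene, lay between 10.36 and 10.48, and Arntl, which encodes the BMAL1 protein, between 9.39 and 9.50. Per2 measured 8.40, 8.55, 8.73, 8.47, 8.73 and 8.88. Nr1d1, the repressor REV-ERB alpha, varied most at an SD of 0.31, from 8.08 in young 2 to 8.95 in young 6. Glucocorticoid-induced genes had a median of 9.90 over 13 genes and a range of 0.18 in the list mean, with Mt1, a metallothionein, at 13.87 ± 0.19 (SD, n = 6), and the hormone-response genes Fkbp5 and Sgk1 at 9.88 ± 0.07 and 11.11 ± 0.12 (SD, n = 6 each). Chaperone and stress genes had a median of 11.92 over 17 genes and ranged over 0.24, and the list of ubiquitous genes had a median of 14.25 over 11 genes and ranged over 0.24 (0.12 under quantile normalization). Both hormone and stress lists were thus narrow beside the choroid plexus list.

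Interferon-induced genes were the exception among the state lists. Their median was 7.69 over 12 genes, the list mean ranged over 0.92, and 8 of the 12 spanned a range of 1, beside 12.2% of all genes. Only 6 of the 12 lay above the yardstick, and dim genes span such a range more often. The median SD of the members was 1.72 times that of the 200 genes nearest in mean. Of the 12, 8 were lowest in young 6, against 16.4% of all genes. Ifi27, an interferon-induced membrane protein, measured 11.07, 10.52, 11.18, 11.38, 10.70 and 10.09. Ifitm3, an antiviral membrane protein, measured 10.75, 10.72, 10.57, 11.05, 10.63 and 10.10. Ifit3 measured 8.77, 8.91, 8.96, 8.75, 8.59 and 7.92. In each of these 3 young 6 was lowest, as in the choroid plexus genes, and the part of choroid plexus tissue in this was not tested. Ifit1, another of the family, went differently, with 6.60, 8.15, 7.65, 7.85, 6.80 and 6.65 and its highest value in young 2.

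Pairs of single genes were compared across the 6 samples with a 2-sided exact permutation test over all 720 orderings, whose smallest p is 0.00139 for Pearson's r and 0.00278 for Spearman's rho. Of 16 pairs written down, 1 had no named probe set for a gene, 4 had a gene whose values fell into separate clusters, and 11 were tested. None passed after Benjamini-Hochberg adjustment over the 11, and 3 had an unadjusted p below 0.05 for r. Mbp and Snap25 had r = 0.90 (exact p = 0.025, adjusted 0.143) and rho = 0.89 (exact p = 0.0333, adjusted 0.321), and r = 0.80 without young 1 and young 3. Both are among the brightest genes, whose order of samples changed with the scaling. C1qa and Tyrobp, both of microglia, had r = 0.80 (exact p = 0.0389, adjusted 0.143) and rho = 0.77 (exact p = 0.103, adjusted 0.374), and r = 0.90 without young 2 and young 6. Fkbp5 and Sgk1 had r = 0.84 (exact p = 0.0389, adjusted 0.143) and rho = 0.83 (exact p = 0.0583, adjusted 0.321), and r = 0.43 without young 3 and young 4. In each pair the samples left out are the 2 farthest from the median of the first gene. This narrows the range, and 4 samples are too few to say whether a relation rested on those left out. Ttr and Folr1 had r = 0.80 (exact p = 0.0833, adjusted 0.229) but rho = 0.20 (exact p = 0.714, adjusted 0.785), and r = 0.32 without young 5 and young 6. The granule cell gene Prox1 and the CA1 gene Wfs1 had r = 0.01 (exact p = 0.979, adjusted 0.979) and rho = -0.43 (exact p = 0.419, adjusted 0.769). The remaining 6 pairs had exact p-values for r between 0.189 and 0.572.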

How the data were processed

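One Affymetrix array was measured per sample, and the deposited table gives a linear intensity for each probe set; the authors made it with MAS5 (no version named), per the submitters' processing notes. Detection calls and scan dates were not used. Each of the 6 young arrays was scaled to a trimmed mean of 500 (2% left out at each end), 16 was added and log2 was taken, which understates differences of dim genes. Of 45037 probe sets that are not controls, 34945 carry 1 gene symbol in the platform annotation, 932 several and 9160 none; 34741 of the first were matched to RefSeq GRCm38.p6 by Entrez ID. A gene is its named probe set of highest mean. Spread was described for the brightest 60% of probe sets. No groups were compared. The genes named are the 20 brightest, the 20 of largest SD, up to 4 brightest members and the most variable member of each list, all members of lists of 5 or fewer, and the genes of the pairs; the text marks most others as chosen after their values were seen, and those of the choroid plexus list were given in full because it varied most. Of 467 list entries, 424 had a named probe set; the calmodulin list had 0 of 3. The members and lists were chosen with earlier results of these data known. Alternatives were quantile normalization, deposited scale, offsets of 1 and 64, other probe set and filter rules, and leaving out each sample. Precision is limited by the number of arrays. The calculations used Python 3.11.15, numpy 2.4.6, pandas 2.3.3 and scipy 1.17.1 and were tested on simulated data.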

Additional observations from a re-analysis of the deposited data

Results flagged for a closer look

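Of 227 values examined in the 6 samples (195 genes and 32 list means), 17 had 1 sample far from the other 5, with a gap to the nearest sample that filled most of the range. Chance gives about 1 in 20 such groups among values not picked by their spread. Some of these genes were picked for a large SD in these same samples, and list means share members with them. That share is therefore no benchmark for the 17. No cause was tested for any of them.

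Young 4 stood low in the GABAergic interneuron list mean at 10.55, in the Y-linked genes Eif2s3y at 8.91 and Kdm5d at 7.73, and in Socs2 at 8.71, and high in Ptprc at 8.01. Young 6 stood low in Alas2 at 6.82, Ifit3 at 7.92, Tent5c at 4.585 and Wdr86 at 4.27. Young 3 stood high in the newborn neuron and progenitor list mean at 8.985, in Cartpt at 8.80 and in Ptgds at 15.43, and low in Pou3f1 at 10.06. Young 1 stood low in Cd99 at 6.11, in Slc17a7 at 12.72 and in Sparcl1, a matrix protein of astrocytes, at 14.19. Slc17a7, Sparcl1 and Ptgds lie at the 98.0th, 99.7th and 99.9th percentiles. For very bright genes the highest sample depended on the scaling, and the flags were not recomputed under quantile normalization. Young 5 stood low in Oas1a at 5.14. The Tent5c value rests on the brighter of its 2 probe sets, since the other was too dim for the brightest 60%, and Cd99 was low in young 1 on all 3 of its probe sets.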

How the results depend on the processing

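Of the 20 brightest genes, 9 were kept when all named probe sets of a gene were averaged, 14 without probe sets of x or s suffix, and all 20 under quantile normalization, the deposited scale and both offsets (19 to 20 when a sample was left out). The number of genes with a range of 1 or more was 1612, and 1213 to 1389 when a sample was left out. It was 627 with an offset of 64, 5355 with no filter, 311 in the brightest 40% and 339 above the dim-signal yardstick, an alternative chosen after seeing the data. Of the 20 genes of largest SD, 11 were kept with an offset of 1, 12 in the brightest 40%, 12 above the yardstick, 11 when SD was divided by that of genes nearest in mean, and 4 to 18 when a sample was left out, with 4 without young 6. The range of the choroid plexus list mean was 1.69 to 2.78 when a sample was left out, lowest without young 6, and 2.32 to 3.12 under the other alternatives. The number of lists with a median above the yardstick stayed between 22 and 27. No pair passed the adjusted threshold under any of the 6 alternatives run. Pairs were not recomputed without a sample, because 5 samples are too few. Of other list medians 70 moved and 314 did not, and of other list ranges 32 moved and 431 did not. Averaging probe sets accounted for 29 of the moved medians. No paired analysis was possible because the 6 samples form 1 group and no groups were compared.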

Other observations

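A few bright genes outside the lists differed in 1 or 2 samples, and they were chosen after their values were seen. Mdh1, the cytosolic malate dehydrogenase, measured 14.40, 14.59, 14.34, 13.28, 14.72 and 14.49 in young 1 to 6, low in young 4 alone. Tcl1b3, a gene of oocytes and early embryos, measured 11.71, 9.13, 9.34, 10.31, 9.37 and 11.02, high in young 1 and young 6. The Mdh1 and Tcl1b3 values each come from a probe set of x suffix, a kind left out in an alternative above. No other probe set is given for either gene. Malat1, a nuclear noncoding RNA, measured 8.64 in young 6 and 10.34 to 11.48 in the others on its brightest probe set, while another of its probe sets lay between 9.36 and 9.73 in all 6 samples, so its probe sets disagreed. Of the genes with a range of 1 or more in which 1 sample stood apart from the other 5, young 4 was the low sample in 35, of which 13 were above the yardstick. Each of the other samples was the low one in 22 to 31 such genes, of which 2 to 5 were above the yardstick. Young 4 also had the lowest value in 18.6% of all 13170 genes, the largest share of any sample.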
